A study of Mus musculus with 5 samples.

Results

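The stem cell transcription factors Mecom, Prdm16, Hlf, Gata2, Runx1, Erg, Etv6, Fli1, Gfi1 and Gfi1b were followed across the 5 arrays of a study of Lrf, the repressor encoded by Zbtb7a. Members were taken by symbol: every probe set that the platform annotation gives to 1 of these 10 genes alone, 25 probe sets in all, out of 18193 genes with such a probe set. RNA came from long-term haematopoietic stem cells (LT-HSCs) of C57BL/6 mice aged 4 weeks, sorted as lineage-negative, Sca-1+, Kit+ cells that lacked IL7Ra, Flt3 and CD48 and carried CD150. The 2 control arrays were from Zbtb7a Flox/+ Mx1-Cre+ animals, which keep 1 unfloxed allele, and the 3 knockout arrays from Zbtb7a Flox/Flox Mx1-Cre+ animals. Both groups carried Cre under the interferon-inducible Mx1 promoter, were given pIpC, a double-stranded RNA analogue, 2 times at 250 µg, and were sampled on day 9 after the first dose. Controls were therefore heterozygous and had the same exposure to Cre and pIpC. Mx1-Cre also acts outside the stem cell. One knockout library (replicate 3) carries the numbers of 2 animals in its label, so arrays may not equal single mice, and p-values measure the spread between these arrays.

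These factors form the core of the network that keeps a blood stem cell in its state. MECOM (EVI1) and PRDM16 are related zinc finger proteins needed for stem cell maintenance, HLF is a PAR bZIP factor restricted to the most primitive cells, and GATA2, RUNX1, ERG and FLI1 bind shared enhancers together with TAL1, LYL1 and LMO2. ETV6 is an ETS-family repressor, and GFI1 and GFI1B are paralogous zinc finger repressors that recruit the histone demethylase LSD1 and share much of their binding specificity. LRF is itself a zinc finger repressor that acts in blood development.

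Start-site sequence was in hand for 9 of the 10 factors (RefSeq, build GRCm38.p6; 15 windows, since some genes have several starts). Shown are the 250 bases before the first listed start of 2 pairs of paralogs, each read 5′ to 3′ on the gene's strand. They are printed because the pairs behaved in opposite ways across the arrays. Mecom and Prdm16 had the most similar profiles of any 2 members. Gfi1 and Gfi1b lay on opposite sides of their own means in each of the 3 knockout arrays. Capitals mark matches to GATAA or AAATCA, of which the Prdm16 and Gfi1 windows hold none. The windows lie at chr3:30509760-30510009 (minus strand) for Mecom, chr4:154636874-154637123 (minus) for Prdm16, chr2:28621983-28622232 (minus) for Gfi1b and chr5:107725806-107726055 (minus) for Gfi1.
Mecom: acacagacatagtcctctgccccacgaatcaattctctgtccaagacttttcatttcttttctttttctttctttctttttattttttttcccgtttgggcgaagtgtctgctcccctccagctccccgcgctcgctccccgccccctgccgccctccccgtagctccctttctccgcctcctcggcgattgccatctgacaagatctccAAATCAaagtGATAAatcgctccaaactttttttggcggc
Prdm16: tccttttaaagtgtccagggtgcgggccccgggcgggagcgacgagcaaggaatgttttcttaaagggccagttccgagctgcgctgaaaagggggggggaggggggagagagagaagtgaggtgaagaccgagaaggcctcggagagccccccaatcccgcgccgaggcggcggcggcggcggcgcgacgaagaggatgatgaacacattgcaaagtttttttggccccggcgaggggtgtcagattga
Gfi1b: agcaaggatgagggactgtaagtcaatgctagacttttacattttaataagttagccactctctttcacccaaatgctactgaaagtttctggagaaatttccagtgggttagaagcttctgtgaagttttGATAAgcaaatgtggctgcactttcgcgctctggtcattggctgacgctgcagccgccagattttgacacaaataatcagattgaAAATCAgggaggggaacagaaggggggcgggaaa
Gfi1: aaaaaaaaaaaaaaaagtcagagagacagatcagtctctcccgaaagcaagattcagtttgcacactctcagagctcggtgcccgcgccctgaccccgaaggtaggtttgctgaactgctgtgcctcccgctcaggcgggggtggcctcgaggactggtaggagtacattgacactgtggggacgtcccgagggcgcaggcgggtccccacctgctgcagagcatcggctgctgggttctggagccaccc

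Motifs were searched on both strands of these 250 bases, after the sequences had been seen. GATAA, the core of GATA factor sites, was found in 4 of the 15 member windows, against 22.6% of 32851 windows of all genes. Its matches were in both Mecom windows, in Gfi1b and in Erg. AAATCA, which holds the AATC core bound by GFI1 and GFI1B, was present in Gfi1b, Mecom and Etv6 (3 of 15, against 12.4%). In Mecom the first AAATCA letter lay 40 bases and the first GATAA letter 30 bases before the start, and in Gfi1b these lay 34 and 119 bases before it. For the ETS family, AGGAAG was in 3 of 15 windows (29.5% of all) and CCGGAA in 2 of 15 (12.0%); both hold the letters GGAA. A RUNX core, TGTGGT, was in 0 of 15 (14.0%). TTANNTAA, only the outer letters of a PAR bZIP site, was in 2 of 15, both of Erg (5.43%). The Erg matches read TTAAATAA and TTAATTAA. The pattern leaves the middle letters free, so these matches do not show a full PAR bZIP site. A match is a string of letters, not a shown binding site.

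The Mecom and Prdm16 windows also shared a run of 24 bases just past their starts. It began 27 bases after the Mecom start and 10 bases after that of Prdm16. The run reached the last base of the Mecom window, and whether the match goes on beyond it was not read. It is shown because no other window in the table held it: 2 of 32851 windows contain it, these 2. On chromosome 3 (Mecom) and chromosome 4 (Prdm16) it reads as follows.
Mecom and Prdm16: GCGCATGTGCGAAGGTGTCCAAAC

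Knockout replicate 2 stood apart from all other arrays, so the difference of each factor's brightest probe set is given with and without it. Its correlation with the others over 45037 probe sets, which are not independent, was 0.945 to 0.970, against 0.977 to 0.990 for the remaining pairs. The gap between 3′ and 5′ control probe sets is a measure of RNA or cRNA length. For Actb it was 3.85 on the log2 scale in that array and 4.90 to 5.21 in the others. For Gapdh it was 4.67 in that array and 5.06 to 5.17 in the others, a smaller shift. Zbtb7a itself, on its brightest probe set, read 8.22 and 8.36 in controls and 8.72, 8.33 and 9.06 in knockouts, a difference of 0.41 (SE 0.26), and its other probe sets gave -0.36 (SE 0.31) and -0.05 (SE 0.18). Where its probes lie relative to the deleted part is not given in the sources used here, so these values check nothing. All values are log2 RMA intensities, and levels of different probe sets are not compared. Of 20 LT-HSC marker genes 18 could be matched, Mecom and Hlf among them, and all 18 passed the filter, a mean over all 5 arrays of at least 5.77.

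The comparison of knockout with control asked what loss of Lrf does to the stem cell transcriptome. For the 10 factors it gave no call: 0 of 24 member probe sets that passed the filter had an adjusted p under 0.05 in limma, against 0 of 27022 probe sets in all (0%), and the adjusted p was 1 for each. At an unadjusted p under 0.05 there were 0 of 24 (1.13% of all probe sets), the smallest being 0.123. With 2 against 3 arrays an exact permutation test cannot go below 0.1. On their brightest probe sets all 10 factors had a lower mean in knockouts than in controls (56.2% of 12813 genes), with Gfi1 turning to 0.0042 under cyclic loess and 0.25 with the replicate block, Gfi1b to 0.35 with array weights, Runx1 to 0.024 with the mean of its probe sets and Erg to 0.022 without control 2. Without knockout replicate 2, 8 of 10 had a lower mean and 2, Gfi1b and Runx1, a higher one. The 2 groups overlapped for all 10 (7.18% of genes did not overlap). The median difference was -0.50, against -0.03 over all genes, and without knockout replicate 2 it was -0.07 against 0.0032. It was -0.27 without control 2, -0.84 without control 1, -0.20 with array weights and -0.29 with the mean of each gene's probe sets. In RNA from a sorted population, fewer cells of a kind and less RNA per cell cannot be told apart.

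**Figure D1:**
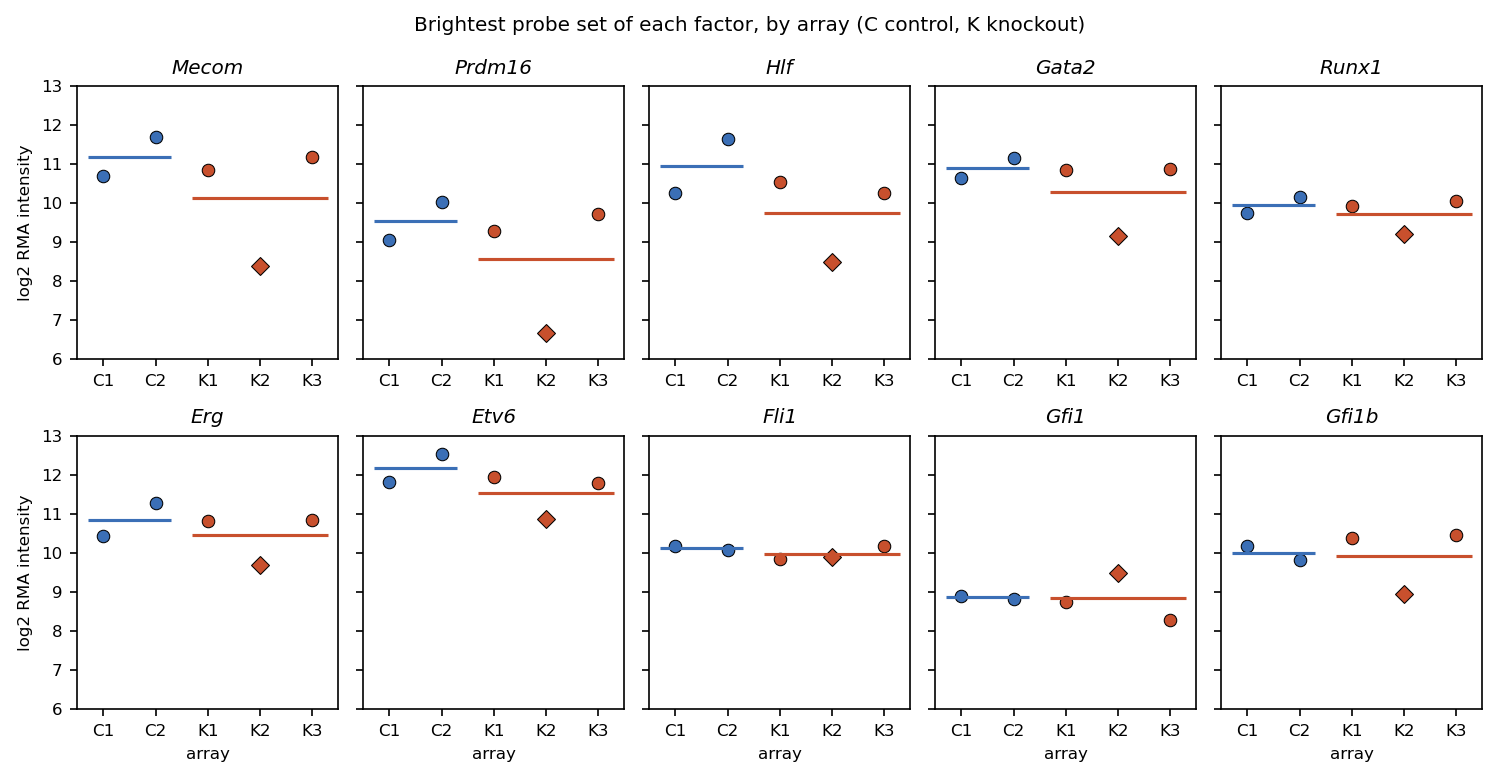
Log2 RMA intensity (vertical axis) of each factor's brightest probe set on the 5 arrays (horizontal axis; C1 and C2 control, K1 to K3 knockout, the diamond being knockout replicate 2), with lines at the group means. Knockout replicate 2 is the lowest point for 8 of the 10 factors, all but Fli1 and Gfi1, and the highest for Gfi1.

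Mecom and Prdm16, the PRDM pair, showed the widest spread. Mecom read 10.70 and 11.68 in controls 1 and 2 and 10.84, 8.38 and 11.17 in knockouts 1, 2 and 3. Knockouts 1 and 3 thus lay between the 2 controls, and only replicate 2 was below them, 2.32 under the next lowest array. The means were 11.19 ± 0.70 (SD, n = 2) and 10.13 ± 1.53 (SD, n = 3), a difference of -1.06 (SE 0.96, 95% interval -3.59 to 1.47), and without knockout replicate 2 the difference was -0.19 (SE 0.40). Prdm16 read 9.05 and 10.03 in controls and 9.28, 6.67 and 9.71 in knockouts, the same order of arrays. Its difference was -0.98 (SE 1.03, 95% interval -3.69 to 1.72), and -0.04 (SE 0.41) without replicate 2. The profiles of the pair, each minus its own mean, differed by a root mean square of 0.088 over the 5 arrays, the smallest value for any 2 of the members.

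The remaining probe sets of the pair were dimmer. The Mecom probe set 1422295_at read 5.82 in both controls and in knockout 1, then 6.20 in knockout 2, through which alone it passed the filter, and 5.63 in knockout 3, and 1423011_at (3.79 to 4.08) did not pass the filter. Neither followed the bright one. For Prdm16, 1440745_at repeated the order of arrays (7.05 and 7.94 in controls; 7.39, 6.27 and 7.58 in knockouts). Its probe set 1429308_at read 7.15 and 7.78 in controls and 7.11, 6.77 and 7.11 in knockouts, the 1 of 25 member probe sets whose groups did not overlap (7.95% of probe sets did not). That gap between groups was narrow and the difference, -0.47 (SE 0.26), had an adjusted p of 1 in limma. The fourth, 1429309_at, read 6.16 in both controls and in knockout 3, with 6.50 and 6.12 in knockouts 1 and 2. Equal values in 2 or more arrays, as here, occurred in 9 of the 25 member probe sets and in 42.6% of all probe sets.

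Hlf, whose protein marks the most primitive stem cells, had 2 bright probe sets. The first read 10.25 and 11.65 in controls and 10.53, 8.48 and 10.26 in knockouts. Knockouts 1 and 3 again lay between the controls, which were 1.40 apart, the widest gap between controls among the 10 factors. The difference was -1.20 (SE 0.79, 95% interval -3.28 to 0.88), the largest of the 10, and -0.56 (SE 0.53) without knockout replicate 2. On the second probe set the values were 10.47 and 11.02 against 10.24, 7.70 and 10.65, a difference of -1.22 (SE 0.97) and of -0.30 (SE 0.28) without that array. Both probe sets thus placed knockout replicate 2 lowest, by 1.77 and 2.54 below the next array.

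Gata2, a zinc finger factor that stem cells and mast cells both need, read 10.64 and 11.15 in controls and 10.84, 9.16 and 10.88 in knockouts. Apart from replicate 2 its 4 values spanned only 0.51, and the difference of -0.60 (SE 0.62) became -0.03 (SE 0.22) without that array. Its other probe set gave 9.69 and 10.33 against 9.69, 8.41 and 9.97, again with replicate 2 lowest. Knockout replicate 2 was 3.28-fold below the mean of the other arrays on the brighter probe set and 2.86-fold below on the other.

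Runx1, the core-binding factor that founds the blood lineage, had 6 probe sets, and they disagreed. The brightest read 9.76 and 10.16 in controls and 9.93, 9.21 and 10.04 in knockouts, a difference of -0.23 (SE 0.32) that was 0.03 (SE 0.19) without knockout replicate 2. Of the other 5, knockout replicate 2 was lowest for 1422864_at (9.44, against 9.50 to 9.99) and 1422865_at (6.43, against 6.58 to 7.14). It was highest for 1427650_a_at (8.07, against 7.06 to 7.20) and 1452530_a_at (6.47, against 5.89 to 6.34), and inside the range for 1452531_at (8.51, against 8.23 to 8.92). Which Runx1 transcripts these probe sets read was not analysed here. The probe set 1422865_at had the smallest unadjusted p of all 25, 0.123 (limma adjusted p = 1), with values of 6.82 and 7.14 against 6.58, 6.43 and 6.82.

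Among the ETS factors, Erg and Etv6 shared a profile while Fli1 was nearly level. Erg read 10.43 and 11.28 in controls and 10.82, 9.69 and 10.85 in knockouts, a difference of -0.40 (SE 0.49) that was -0.02 (SE 0.33) without knockout replicate 2. Etv6 read 11.82 and 12.53 against 11.95, 10.88 and 11.78, giving -0.64 (SE 0.42) and, without that array, -0.31 (SE 0.29). Their profiles differed by a root mean square of 0.15, and each was the other's nearest member. Fli1, a close relative of Erg, read 10.17 and 10.06 in controls and 9.85, 9.91 and 10.18 in knockouts. Apart from knockout replicate 2 its values spanned 0.33, that array lay inside this range, and the difference was -0.14 (SE 0.17, 95% interval -0.58 to 0.30; -0.11 without that array), the narrowest interval of the 10. The dimmer probe sets spread more for Fli1 (7.96 to 9.00) and Etv6 (6.91 to 7.72) than between their groups: they differed by -0.05 (SE 0.33) and 0.10 (SE 0.31). For Erg the dimmer one gave -0.27 (SE 0.21).

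Gfi1 and Gfi1b, the repressor pair, lay on opposite sides of their own means in each knockout array. Knockout replicate 3 was the lowest array for Gfi1 and the highest for Gfi1b, the reverse of replicate 2. Gfi1 read 8.90 and 8.83 in controls and 8.73, 9.49 and 8.29 in knockouts, with replicate 2 the highest array and 1.74-fold above the mean of the others. Gfi1b read 10.19 and 9.82 in controls and 10.38, 8.96 and 10.45 in knockouts, with replicate 2 the lowest and 2.39-fold below. Over all 5 arrays the differences were near 0, at -0.02 (SE 0.38, 95% interval -1.03 to 0.98) for Gfi1 and -0.08 (SE 0.53, 95% interval -1.47 to 1.31) for Gfi1b. Without replicate 2 they were -0.35 (SE 0.20) and 0.41 (SE 0.18), each with a limma adjusted p = 0.953. In those 4 arrays the groups of both genes did not overlap, as for 2 of 10 members and 27.4% of all genes, so that share is near the background. Each gene had 1 probe set, so there is no second reading of either.

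**Figure D2:**
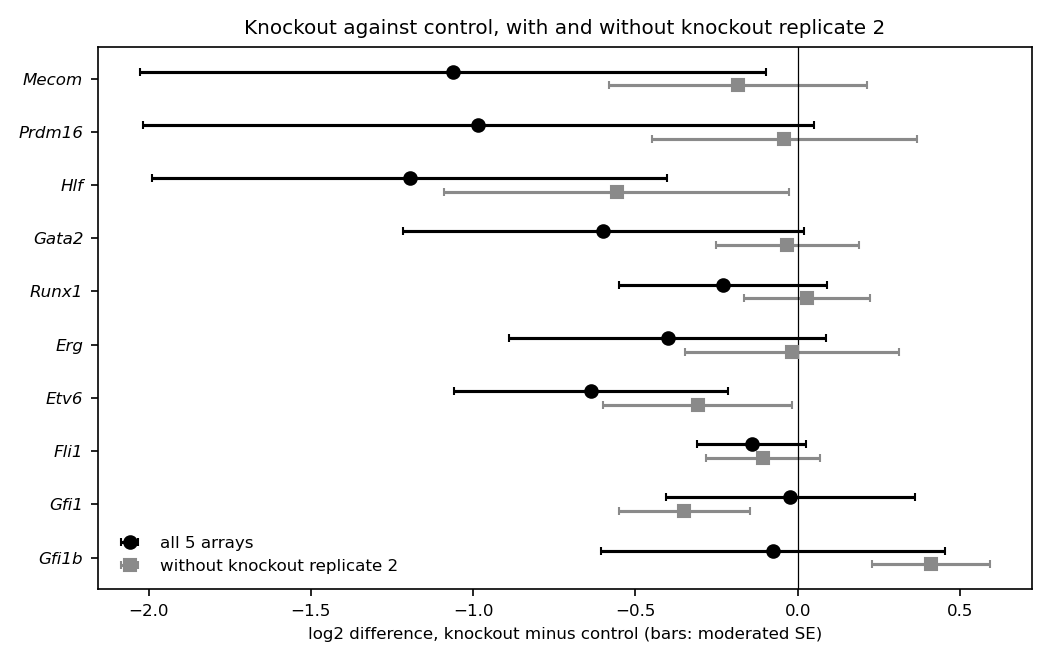
Log2 difference of knockout minus control (horizontal axis) for each factor's brightest probe set, with all 5 arrays (black circles) and without knockout replicate 2 (grey squares); bars are moderated standard errors. With all arrays the differences run from -1.20 (Hlf) to -0.02 (Gfi1, 0.0042 under cyclic loess), and without replicate 2 from -0.56 (Hlf) to 0.41 (Gfi1b).

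Knockout replicate 2 was below every other array for 8 of the 10 factors (40.5% of all genes), and at least 1 log2 unit below the mean of the others for 7 of 10 (10.3%). The median shift in that array was -1.21 for the factors and -0.07 for all genes, whose 5th and 95th percentiles were -1.32 and 1.34. Prdm16, Mecom, Hlf and Gata2 lay below the lower of these, at 7.21-, 6.59-, 4.57- and 3.28-fold below the other arrays. That the stem cell list stands low in this array was known when the factors were chosen, so these counts describe it and support nothing further.

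**Figure D3:**
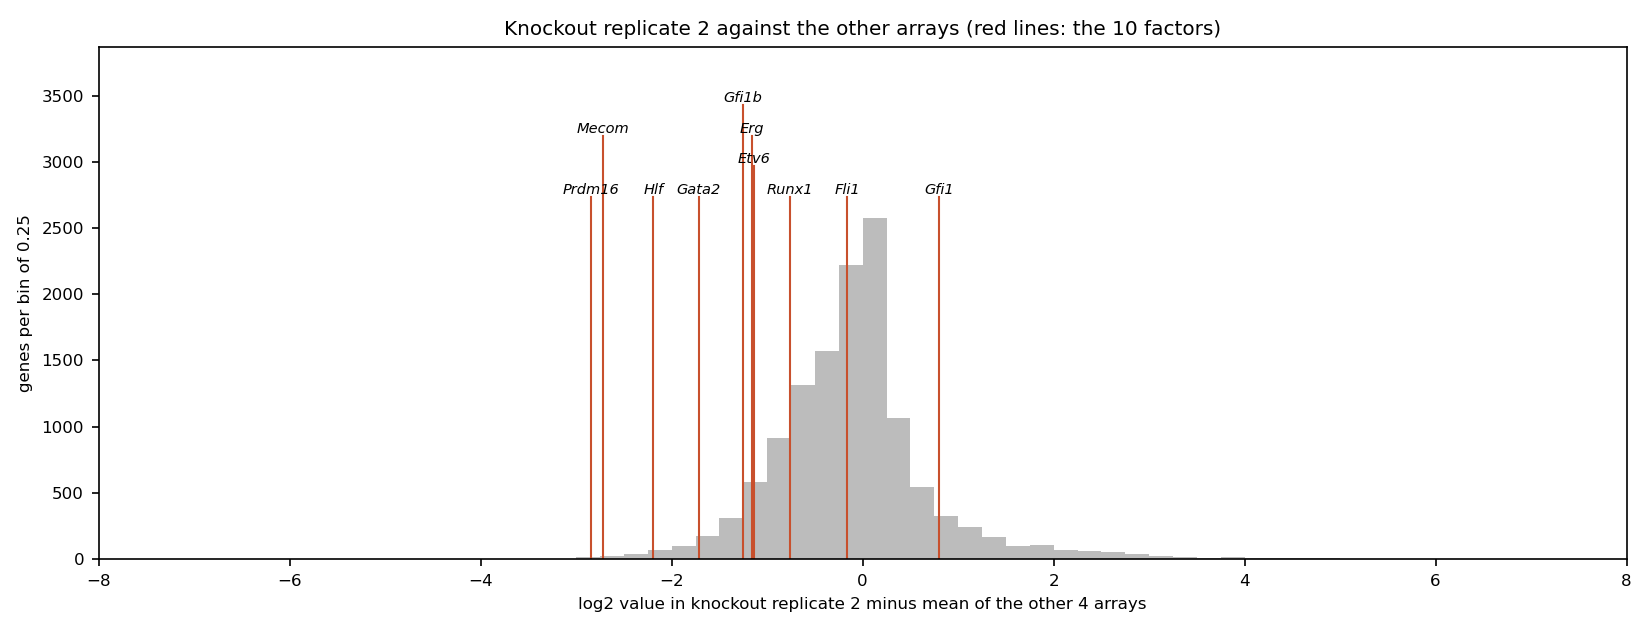
Number of genes (vertical axis, bins of 0.25) by log2 value in knockout replicate 2 minus the mean of the other 4 arrays (horizontal axis), for 12813 genes in grey, with a red line for each factor (line heights carry no value). The lines of Prdm16, Mecom and Hlf lie in the far left tail at -2.85, -2.72 and -2.19, and that of Gfi1 at 0.80.

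The controls also differed between themselves. Control 2 was above control 1 for 7 of the 10 factors (56.3% of genes), all but Gfi1, Gfi1b and Fli1, and was the highest of all arrays for 7 (27.2%). The median gap was 0.61, against 0.08 over all genes. For 8 of 10 factors this gap between controls was larger than the knockout difference without replicate 2, the exceptions being Gfi1 and Gfi1b.

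Other stem cell genes were low in knockout replicate 2 too. LT-HSC markers other than Mecom and Hlf, among them the surface receptor genes Kit, Slamf1 and Procr, were below all other arrays there for 15 of 16 tested. Their difference between groups was negative for 15 of 16 (0 called), with a median of -0.67, and -0.06 without that array. Their summed level, the log2 of the sum of linear intensities, was 14.08 to 14.89 in controls and 13.23 to 14.44 in knockouts, replicate 2 being the 13.23. The brightest, Ifitm1, read 12.45 and 13.44 against 12.95, 12.48 and 12.69. Kit, part of the gate, read 9.60 in that array and 11.12 to 11.82 elsewhere, and Slamf1, which encodes CD150, 6.60 against 8.06 to 9.16.

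Markers of other cells and states were high in the same array. The share of all genes highest in it was not counted, so such counts, here and below, have no background beside them. All 13 tested immediate early genes, which respond within minutes to stimuli and cell handling, were highest there. Their list had a summed level of 15.75 against 12.06 to 12.53. Summed levels, here and below, cover all matched genes of a list, also those under the filter. In this list Fosb, Junb and Egr2 were under the filter and also highest in that array. Jund, the brightest, read 11.92 against 10.07 to 10.63. Multipotent and myeloid progenitor markers were highest there for 9 of 10, with a summed level of 15.57 against 13.62 to 14.37 and the primary granule gene Mpo at 13.89 against 12.50 to 13.22. Of the 2 genes in this list whose products the gate excludes, Cd48 read 9.97 there against 7.87 to 8.59, and Flt3, the 1 of 10 not highest, read 8.56, inside the 8.25 to 9.50 of the other arrays. Of the B cell markers, Ebf1 and Blk passed the filter only through this array, and the remaining 6 of 8 were all highest there. The summed level of all 8, Ebf1 and Blk included, was 12.99 against 10.31 to 10.92. It thus rests in part on genes that passed only through this array. Vpreb1 read 10.62 against 7.87 to 9.51. Among T and natural killer cell markers Klrd1 passed only through this array, and 4 of the other 5 past the filter were highest there. Here the summed level was 11.22 against 9.38 to 10.28. That sum covers all 9 matched genes, among them Klrd1 and the 3 under the filter, so it adds nothing to the count. Gzma read 9.18 against 6.47 to 9.09. Cd3g, Cd2 and Ncr1 did not pass the filter. Whether these other transcripts, the shorter 3′ to 5′ gap or the array as a whole had a part in the low values of the factors was not tested.

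Megakaryocyte markers in knockout replicate 2 were below all others for 5 of 7 (40.5% of all genes) and above all for 1. Their summed level there was 11.01 against 11.85 to 12.50. The median shift was -0.65, smaller than the -1.21 of the factors. Pf4, a platelet chemokine and the brightest of them, read 9.01 against 10.45 to 11.40. Between groups, 6 of 7 megakaryocyte markers were lower in knockouts (56.2% of genes) and 0 were called. The groups were apart for 3 of 7 (7.18% of genes). The median difference was -0.58, and -0.28 without knockout replicate 2. Macrophage markers had summed levels of 14.28 to 15.23 in controls and 12.82 to 14.22 in knockouts, with 12 of 12 lower in knockouts (0 called) and groups apart for 9 (7.18% of genes); the brightest, Slc40a1, read 13.20 and 12.53 against 11.38, 12.44 and 12.53. Mast cell and basophil markers, of which Gata2 is one, had 4 of 8 highest in knockout replicate 2. Another 2 of 8, Kit and Gata2, were lowest there (40.5% of all genes), so the list was split. Its summed level was 13.33 there against 12.44 to 12.85. In that list the brightest gene was Kit, and the receptor gene Fcer1a was under the filter. Erythroid markers summed to 13.81 to 15.60 in controls and 14.95 to 15.47 in knockouts, with Ermap at 13.18 and 11.55 against 12.86, 12.83 and 13.15. Endothelial and stromal markers were mostly dim, with 5 of 10 under the filter, Cdh5 and Pecam1 among them, and sums of 10.38 to 10.92 and 9.74 to 10.67; Pdgfrb, the brightest, read 6.15 and 8.46 against 9.26, 6.65 and 9.79.

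**Figure D4:**
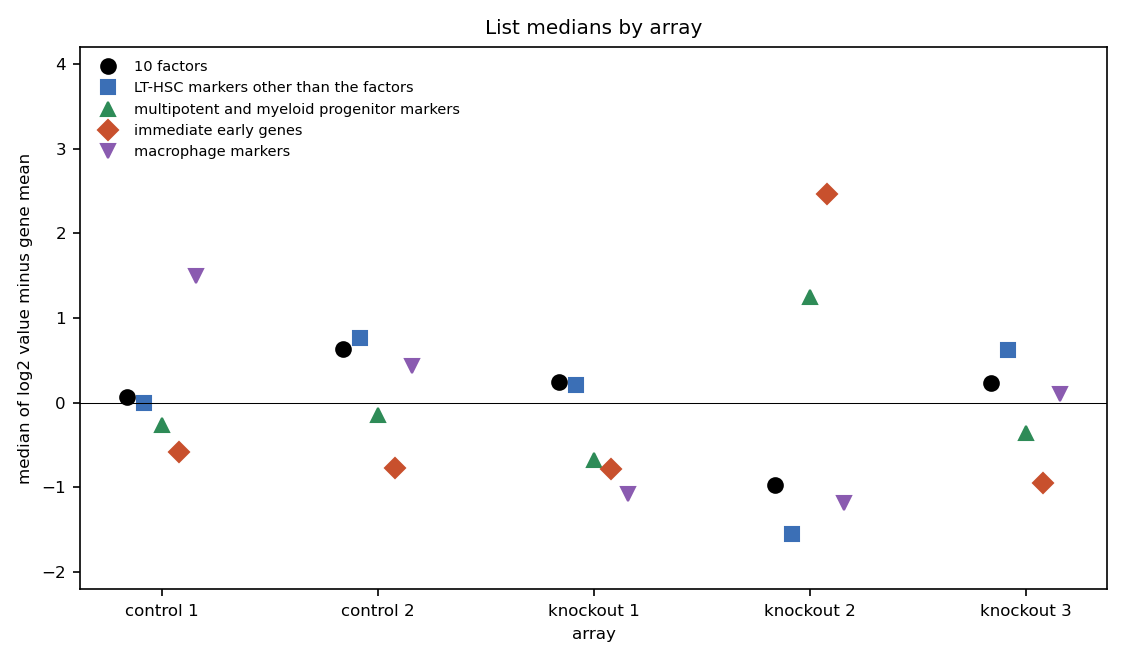
Median over each list of the log2 value minus the gene's mean (vertical axis) on each array (horizontal axis), 1 point per list. In knockout replicate 2 the 10 factors (-0.97) and the other LT-HSC markers (-1.54) are low, while immediate early genes (2.47) and multipotent and myeloid progenitor markers (1.25) are high.

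Partners and cofactors of the 10 factors, such as the complex subunits and other blood regulators that act with them, were described from a list of 31 genes, 29 of them tested. Higher means were seen for 12 and lower means for 17, and 0 were called in either direction. The median difference was -0.05 (0.03 without knockout replicate 2). That array was below all others for 20 of 29 (40.5% of all genes) and above all for 4, with a median shift of -0.62. Tal1, a bHLH partner of GATA2 and RUNX1, read 11.59 and 11.49 in controls and 11.24, 10.77 and 11.35 in knockouts, so that its groups did not overlap, which held for 1 of 29 (7.18% of genes); the difference was -0.42 (SE 0.23). The corepressor Ctbp2, which MECOM and PRDM16 bind, differed by -0.30 (SE 0.18), Tcf15, a bHLH factor of quiescent stem cells, by -0.28 (SE 0.26) and the bridging factor Lmo2 by -0.35 (SE 0.36). None passed the test.

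Genes known from earlier work to be bound or regulated by 1 or more of the factors were 29 tested of 33 listed, with 8 higher, 21 lower and 0 called, at a median of -0.29 (-0.17 without knockout replicate 2). Knockout replicate 2 was below all other arrays for 16 of 29 (40.5% of all genes) and above all for 10, with a median shift of -0.74. An unadjusted p under 0.05 was given by 1 of 29, Socs2 (1.13% of probe sets). Groups did not overlap for 3 of 29, Socs2, Cdkn1a and Itga2b, a share close to the 7.18% of genes. Socs2, a brake on cytokine signalling, read 7.97 and 9.16 in controls and 7.55, 6.92 and 7.31 in knockouts, lower in each knockout array (difference -1.31, SE 0.42; -1.14 without replicate 2; limma adjusted p = 1). The cell cycle inhibitor Cdkn1a read 7.62 and 7.54 against 7.79, 8.86 and 8.04, a difference of 0.65 (SE 0.36). Bcl2, which protects cells from death, differed by -0.55 (SE 0.31). Cdkn1c, the inhibitor p57 of quiescent stem cells, read 8.05 and 9.19 against 8.05, 6.14 and 8.05, which put replicate 2 lowest as for most of the factors.

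The genes outside the group with the profile closest to the factors' median profile, by root mean square difference over the 5 arrays, were Fpgt (0.056), Cyp4v3 (0.070), Gimap5 (0.071), R3hcc1 (0.072) and Tle2 (0.073). Fpgt, which encodes a fucose-handling enzyme, read 8.38 and 8.87 in controls and 8.55, 7.29 and 8.55 in knockouts. Tle2, a Groucho-family corepressor, read 8.22 and 8.90 against 8.33, 7.22 and 8.38. In all 5 of these genes control 2 was the highest array and knockout replicate 2 the lowest, as the factors' median profile had it (0.64 and -0.97). They were chosen for closeness to that profile, so this order follows from the choice.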

How the data were processed

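Per the submitters' processing notes, the authors made the deposited log2 intensities, 1 per probe set and array, with RMA in Affymetrix Expression Console (versions not stated). This step gives all arrays one distribution, so a shift common to most transcripts is removed; cRNA was amplified in 2 rounds, per the labels' protocols. Of 45101 rows, 64 control probe sets were left out; of 45037, the 40% with the lowest mean (below 5.77) were left out of the tests, leaving 27022. The platform annotation gave 34945 probe sets 1 symbol, 932 several and 9160 none. A gene was represented by its brightest single-gene probe set. The 3 knockout and 2 control arrays entered a limma 3.58.1 model (R 4.3.3; lmFit, eBayes, two-sided, Benjamini-Hochberg over all probe sets tested, threshold 0.05), a fit tested on simulated data. Array number limits the precision. Members, lists and the rule for named genes were chosen with earlier results of these data known; the rule names all members, the 4 partners and 4 targets of smallest p, the 5 genes of nearest profile and each marker list's brightest gene. Kit, Slamf1, Procr, Cd48, Flt3, Itga2b, Ebf1, Blk, Klrd1 and the dim markers were named after their values were seen. Alternatives were other filters, priors, weights, scalings, probe set means, leaving arrays out singly, and the replicate number as a block. Figures used matplotlib 3.10.9.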

Additional observations from a re-analysis of the deposited data

How the results depend on the processing

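Under the 13 alternatives, 0 member probe sets and 0 probe sets in all were called in each fit on probe sets, and the smallest adjusted p of any member was 0.856. Unadjusted p-values under 0.05 numbered 306 in the reported fit, 629 with no filter, 1160 with array weights, 1057 without knockout replicate 2 and 184 with the replicate block. Of 130 recomputed member differences, 119 kept their sign and 11 did not. Gfi1 turned to 0.0042 with cyclic loess and 0.25 with the replicate block, and, with each array omitted in turn, ran from -0.35 to 0.25. Gfi1b turned to 0.35 with array weights and ran from -0.34 to 0.41. Runx1 turned to 0.024 with the mean of its probe sets and ran from -0.43 to 0.027, and Erg ran from -0.82 to 0.022. The cause of these turns was not tested. The members' median ran from -0.84 (without control 1) to -0.07 (without knockout 2). Since only knockouts have a replicate 3, the replicate block gives the same differences as leaving it out (median -0.68). The p-values are not the same: 184 probe sets were under 0.05 unadjusted in limma with the block and 385 without knockout replicate 3. In the labels the samples share only a number. Deviations correlated at -0.58 (control 1 with knockout 1) and -0.59 (control 2 with knockout 2). With 2 controls, the deviations of control 1 mirror those of control 2, so these values cannot decide whether the numbers mark pairs. Knockout replicate 2 had an array weight of 0.20 and knockout 1 one of 7.67.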
